A study of Mus musculus with 8 samples.

Results

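Got1, Got2, Gpt, Gpt2, Glul, Glud1 and Oat encode the enzymes that move amino groups onto and off glutamate and that turn glutamate into glutamine. They were taken by symbol from the gene counts of mouse tibialis anterior (TA), a fast-twitch muscle of the lower leg. All 7 were present among 12551 genes. The study asked how loss of Klotho, a membrane and circulating protein made mainly in the kidney, affects skeletal muscle. RNA was sequenced from whole, snap-frozen TA muscles of 4 wild-type (WT) mice and 4 littermates homozygous for a Klotho null allele (KL-/-), all male and 7 weeks of age. The animals were bred from Klotho+/- parents on a mixed background, no group received a treatment, and the null allele is carried by every tissue. A direct effect in muscle and an effect of the systemic disease therefore cannot be told apart here. Kl itself was not analysed here, so the genotypes rest on the labels. The labels number the libraries but do not state outright that each is a separate mouse. The p-values weigh differences between the groups against the variation between these libraries.

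Transaminases pass the amino group of one amino acid to a keto acid, most often with glutamate and its keto acid, alpha-ketoglutarate, as partners. Skeletal muscle uses these reactions to collect nitrogen from amino acid breakdown and releases much of it as alanine and glutamine, which other organs take up. Got1 and Got2 are the cytosolic and mitochondrial aspartate aminotransferases of the malate-aspartate shuttle, which carries reducing equivalents into mitochondria. Gpt and Gpt2 are the cytosolic and mitochondrial alanine aminotransferases. Glud1 is the mitochondrial glutamate dehydrogenase, Oat is the mitochondrial ornithine aminotransferase, and Glul is glutamine synthetase, which joins ammonia to glutamate.

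Total counts per library were 20860262 to 26501093 in WT and 22061526 to 29273758 in KL-/- muscle. Levels are given in CPM, the usual count relative to library size, with library sizes scaled by trimmed mean of M-values (TMM) factors, and 3 counts corresponded to 0.105 to 0.143 CPM. KL-/- replicate 2 stood apart from the rest of its group, with a chi-square per gene of 60.3 to 84.4 against the other KL-/- libraries, which differed from each other by 17.8 to 27.8. WT replicate 4 differed from the other WT libraries by 29.9 to 45.9, and those from each other by 9.91 to 26.3. KL-/- replicate 3 was the only library with the later of the 2 batch dates. The 10 skeletal muscle markers were present in every library, led by Myh4 at a mean of 41916 CPM. They summed to 142395 to 163875 CPM per WT library and 169693 to 214041 CPM per KL-/- library, with 2 of 10 higher. The highest sum was in KL-/- replicate 2, and the other KL-/- libraries reached at most 180924 CPM. Markers of other cells were also counted, by the edgeR test described with the results, in which 6.44% of all genes were lower and 7.23% higher. Of 10 fibroblast markers 4 were lower (summed level 1443 to 4419 CPM in WT, 784 to 1999.6 CPM in KL-/-), of 10 macrophage markers 2 were lower (67.0 to 140.3 and 48.0 to 83.5 CPM) and of 10 endothelial markers 1 was lower (604 to 869 and 594 to 624 CPM). Of 10 Schwann cell markers 4 were higher (58.8 to 105 and 109 to 135 CPM), and 2 of the 8 adipocyte markers counted were higher (3188 to 3762 and 4403 to 5168 CPM, most of it from Car3, which muscle fibres also express). The only erythroid marker counted, Alas2 (3.35 to 9.57 CPM across WT and 3.07 to 9.16 CPM across KL-/- libraries), did not pass the test. The summed levels of the fibroblast, macrophage and endothelial markers overlapped between genotypes, and those of the Schwann cell and adipocyte markers did not. No counted marker was at 0 in any library. Of the listed markers, 8 of 10 for adipocytes and 1 of 6 for erythroid cells were in the deposited counts. The part of these cell types in the results that follow was not tested.

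The 250 bases before the annotated start are shown for the 4 genes that were higher in KL-/- muscle, to place the data beside the DNA next to each gene. They come from RefSeq, build GRCm38.p6, and 6 of the 7 genes were matched; Gpt was not. Capitals mark matches, on either strand, to any of 8 short motifs. These were TATAAA for the TATA box, CCAAT for the box of that name, GGGCGG for the GC box, CACGTG for the E-box, TGTTTAC for FOXO factors, TGTTCT for the glucocorticoid receptor, TGATGNAA for ATF4 with C/EBP factors and AAGGTCA for estrogen-related receptors (ERR). Glul lies at chr1:153899679-153899928 on the plus strand, Gpt2 at chr8:85492326-85492575 on the plus strand, Glud1 at chr14:34310477-34310726 on the plus strand and Oat at chr7:132576399-132576648 on the minus strand.
Glul: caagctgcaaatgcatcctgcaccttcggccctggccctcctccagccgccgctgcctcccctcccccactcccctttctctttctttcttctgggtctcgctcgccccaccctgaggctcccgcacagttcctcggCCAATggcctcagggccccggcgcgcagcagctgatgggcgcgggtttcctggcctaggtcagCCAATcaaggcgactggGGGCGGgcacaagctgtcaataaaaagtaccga
Gpt2: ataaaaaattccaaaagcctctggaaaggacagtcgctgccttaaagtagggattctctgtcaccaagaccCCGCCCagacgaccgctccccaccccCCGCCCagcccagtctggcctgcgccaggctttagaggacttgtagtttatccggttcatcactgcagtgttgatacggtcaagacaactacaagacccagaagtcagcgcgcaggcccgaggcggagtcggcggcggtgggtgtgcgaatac
Glud1: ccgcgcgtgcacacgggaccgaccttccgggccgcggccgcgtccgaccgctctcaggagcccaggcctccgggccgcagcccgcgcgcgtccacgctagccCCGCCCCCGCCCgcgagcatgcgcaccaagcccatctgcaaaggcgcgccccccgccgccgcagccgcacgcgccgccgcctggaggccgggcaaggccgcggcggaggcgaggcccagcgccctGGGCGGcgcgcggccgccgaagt
Oat: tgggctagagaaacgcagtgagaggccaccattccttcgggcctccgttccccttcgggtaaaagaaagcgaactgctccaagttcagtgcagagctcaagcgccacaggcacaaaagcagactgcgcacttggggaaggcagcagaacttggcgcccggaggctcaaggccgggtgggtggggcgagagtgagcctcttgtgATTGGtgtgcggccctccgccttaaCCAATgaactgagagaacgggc
Each sequence runs 5′ to 3′ toward its own gene. Glul held CCAAT boxes starting 113 and 50 bases before the start and a GC box at 33. Oat held CCAAT boxes at 47 and 22, Gpt2 GC boxes at 179 and 153, and Glud1 GC boxes at 148, 142 and 23. Glud1 had the highest GC content of the 6, 82.0% with 46 CpG, against a median of 52.4% and 6 CpG over 32851 promoter windows of the same length. A CCAAT box was in 3 of 6 (Got1, Glul and Oat) and in 33.8% of all windows, and a GC box was in 3 of 6 (Gpt2, Glul and Glud1) and in 32.7%. The ATF4 and C/EBP motif (3.45% of all windows) and the ERR motif (4.08%) were found in Got1 alone among the 6, and the TATA box (12.4%) in Got2 alone. The E-box (6.02%), FOXO motif (3.17%) and glucocorticoid receptor motif (16.1%) were in 0 of 6. No pair of the 18 matches overlapped. These matches describe letters in these windows and are not evidence of binding.

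Glul, Gpt2, Glud1 and Oat were higher in KL-/- than in WT muscle, and Got1, Got2 and Gpt did not pass the test. Of the 7 genes, 4 were higher at a false discovery rate (FDR) under 0.05 in edgeR's quasi-likelihood test with Benjamini-Hochberg adjustment over all 12551 genes, and 0 were lower. For the background, 7.23% of all genes were higher, 6.44% were lower and 13.7% were called in either direction. The log2 fold change, KL-/- over WT, was positive in 7 of 7 with TMM factors, and in 5982 of all 12551 genes. With library totals it was positive in 5 of 7, with Got1 at -0.049, Got2 at -9.7e-05 and Gpt at 0.0011. The median with TMM factors was 0.30 over the 7 genes and -0.016 over all genes tested. The same 4 genes had every KL-/- library above every WT library, which 10.2% of all genes did, while 9.47% had every KL-/- library below and 19.7% did not overlap in either direction. In whole muscle, a different number of cells of a type and a different amount of RNA per cell cannot be told apart.

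Glul had the largest fold change of the 7. Its levels were 175.5, 92.9, 80.1 and 88.1 CPM in WT replicates 1 to 4 and 317.9, 176.5, 561.8 and 344.8 CPM in KL-/- replicates 1 to 4. WT replicate 1 was the highest WT library and lay just under KL-/- replicate 2, the lowest KL-/- library, so the groups were separated by a narrow gap. The mean rose from 109 ± 44.5 to 350 ± 159 CPM (SD, n = 4 each), with a log2 fold change of 1.68 (SE 0.35, 95% interval 0.89 to 2.47), or 3.21-fold (edgeR quasi-likelihood FDR = 0.0165). Both groups were spread widely, with coefficients of variation of 40.8% for WT and 45.4% for KL-/-. The change was 1.36 without KL-/- replicate 3, the library of the later batch date (edgeR FDR = 0.0375), and 1.91 without KL-/- replicate 2 (edgeR FDR = 0.00453). It no longer passed without WT replicate 2 (FDR = 0.0539) or WT replicate 3 (FDR = 0.0533), both by edgeR.

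Gpt2, which makes alanine inside mitochondria, was higher by a smaller factor. It stood at 376.8, 368.0, 276.6 and 328.7 CPM in WT replicates 1 to 4 and at 451.5, 431.8, 542.2 and 458.5 CPM in KL-/- replicates 1 to 4. Every KL-/- library exceeded every WT library, and KL-/- replicate 3 was the highest. The mean rose from 338 ± 45.7 to 471 ± 48.8 CPM (SD, n = 4 each), a log2 fold change of 0.48 (SE 0.11, 95% interval 0.23 to 0.73; 1.40-fold; edgeR FDR = 0.0236). The call was lost without WT replicate 3 (edgeR FDR = 0.0502), KL-/- replicate 3 (0.0613) or KL-/- replicate 4 (0.0558).

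Glud1, which releases ammonia from glutamate or fixes it again, differed little within groups. Its WT libraries stood at 177.8, 168.7, 161.0 and 162.0 CPM and its KL-/- libraries at 203.7, 185.3, 217.7 and 221.9 CPM, in replicate order. The groups did not overlap, and KL-/- replicate 2 lay closest to WT. The mean rose from 167 ± 7.75 to 207 ± 16.5 CPM (SD, n = 4 each), a log2 fold change of 0.31 (SE 0.072, 95% interval 0.15 to 0.47; 1.24-fold; edgeR FDR = 0.0247). Leaving out KL-/- replicate 3, KL-/- replicate 4 or WT replicate 2, 3 or 4 ended the call (edgeR FDR = 0.0713, 0.0711, 0.0637, 0.0705 and 0.0532).

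Oat, which converts ornithine and alpha-ketoglutarate toward proline and glutamate, was higher by a similar factor. WT libraries were at 200.6, 165.0, 175.7 and 177.7 CPM and KL-/- libraries at 212.4, 212.8, 242.2 and 215.7 CPM, in replicate order. WT replicate 1 was the WT library closest to the KL-/- range, and 3 of the KL-/- libraries lay within a narrow band under replicate 3. The mean rose from 180 ± 14.96 to 221 ± 14.3 CPM (SD, n = 4 each), a log2 fold change of 0.30 (SE 0.077, 95% interval 0.12 to 0.47; 1.23-fold; edgeR FDR = 0.0339). The call was lost without KL-/- replicate 3 or 4 or WT replicate 2, 3 or 4 (edgeR FDR = 0.0943, 0.0730, 0.0946, 0.0874 and 0.0657).

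The cytosolic and mitochondrial aspartate aminotransferases overlapped between genotypes. The WT libraries had Got1 levels of 633.4, 567.8, 540.8 and 617.2 CPM and the KL-/- libraries 624.3, 469.3, 673.6 and 705.9 CPM, in replicate order. The KL-/- libraries lay both below and above the WT range, with replicate 2 lowest. Its WT mean of 590 ± 43.0 CPM stood against a KL-/- mean of 618 ± 105 CPM (SD, n = 4 each), a log2 difference of 0.068 (SE 0.12, 95% interval -0.21 to 0.34; edgeR FDR = 0.733). The WT libraries had Got2 levels of 734.2, 720.0, 725.9 and 718.7 CPM and the KL-/- libraries 811.9, 616.6, 846.6 and 868.9 CPM. The WT libraries were nearly level while KL-/- replicate 2 lay below all of them and the other 3 lay above. The means were 725 ± 7.04 and 786 ± 115 CPM (SD, n = 4 each), a log2 difference of 0.12 (SE 0.10, 95% interval -0.11 to 0.35; edgeR FDR = 0.465). Without KL-/- replicate 2 the difference was 0.23 and passed (edgeR FDR = 0.0199).

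Gpt, the cytosolic alanine aminotransferase, was the lowest of the 7 in counts. The WT libraries held 32.6, 26.8, 31.8 and 36.7 CPM and the KL-/- libraries 38.2, 25.7, 33.2 and 41.7 CPM, from 539 to 1105 counts per library. The genotypes overlapped, with the lowest and the highest library both from KL-/- muscle. The means were 32.0 ± 4.07 and 34.7 ± 6.92 CPM (SD, n = 4 each), a log2 difference of 0.12 (SE 0.15, 95% interval -0.21 to 0.44; edgeR FDR = 0.610).

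**Figure D1:**
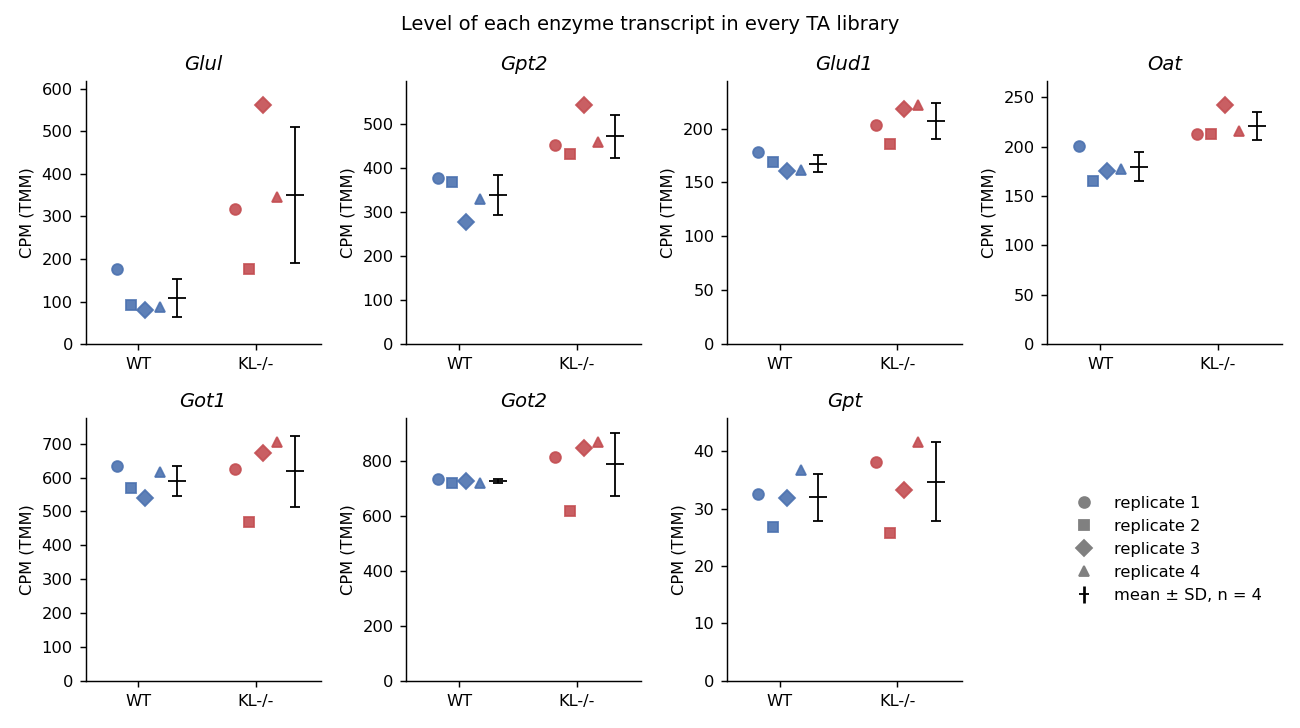
Level of each of the 7 genes in every library, in CPM on axes that start at 0, with WT and KL-/- groups side by side and a bar for each group mean with its SD (n = 4). For Glul, Gpt2, Glud1 and Oat every KL-/- point lies above every WT point, and for Got1, Got2 and Gpt the points of the 2 groups overlap.

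The count of called genes depended on the scaling and on single libraries. It was 2 of 7, Glul and Gpt2, when libraries were scaled by their totals alone. With TMM factors it was 4 without WT replicate 1 and without KL-/- replicate 1, and 5 without KL-/- replicate 2, when Got2 also passed. It was 2 without WT replicate 4 and 1 without WT replicate 2, KL-/- replicate 3 or KL-/- replicate 4, and 0 without WT replicate 3 in edgeR's quasi-likelihood test, where 4 of the 7 and 25.3% of all genes had an unadjusted p under 0.05. In these fits the share of all genes called higher moved too, from 3.19% without WT replicate 2 to 12.1% without KL-/- replicate 2. KL-/- replicate 2 was the lowest KL-/- library for 6 of the 7 genes, and WT replicate 1 the highest WT library for 6 of the 7.

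**Figure D2:**
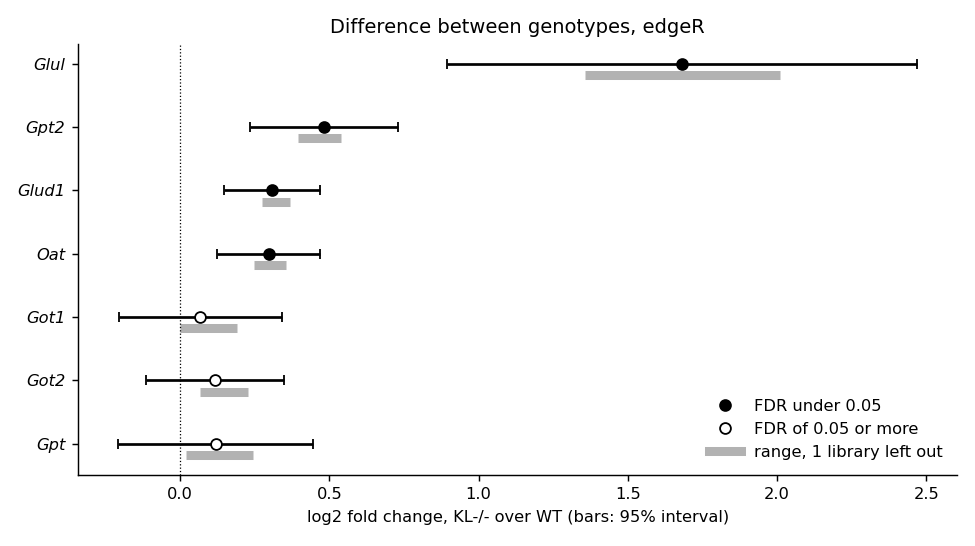
Log2 fold change, KL-/- over WT, of each of the 7 genes with its 95% interval from edgeR, with the range over the fits that each leave out 1 library. The intervals of Glul (0.89 to 2.47), Gpt2, Glud1 and Oat lie above 0, and those of Got1, Got2 and Gpt reach across 0.

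Levels were compared between genes as CPM per kilobase of exonic length. In WT muscle the order was Got2 (309 ± 3.00), Got1 (287 ± 20.9), Gpt2 (93.9 ± 12.7), Oat (83.4 ± 6.94), Glud1 (53.0 ± 2.46), Glul (38.9 ± 15.9) and Gpt (18.3 ± 2.32 CPM per kilobase; SD, n = 4). The aspartate aminotransferases thus stood well above the rest, and neighbours whose ranges overlapped were Got2 and Got1, Gpt2 and Oat, and Glud1 and Glul. Within the same library Got2 was still above Got1 in 4 of 4 WT and 4 of 4 KL-/- libraries. Gpt2 was above Oat, and Glud1 above Glul, in 3 of 4 WT libraries each. In KL-/- muscle Got2 (335 ± 49.2), Got1 (301 ± 51.0) and Gpt2 (131 ± 13.6) led in the same order, followed by Glul (125 ± 56.7), Oat (102 ± 6.66), Glud1 (65.6 ± 5.22) and Gpt (19.8 ± 3.95 CPM per kilobase; SD, n = 4). Glul stood at rank 6 in WT and rank 4 in KL-/- muscle, with Oat at ranks 4 and 5 and Glud1 at ranks 5 and 6, though the KL-/- libraries of Glul overlapped those of Gpt2 above it and Oat below it. Glul made up 6.54%, 3.83%, 3.44% and 3.55% of the summed level of the 7 genes in the WT libraries and 10.6%, 7.43%, 16.1% and 10.6% in the KL-/- libraries, in replicate order.

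**Figure D3:**
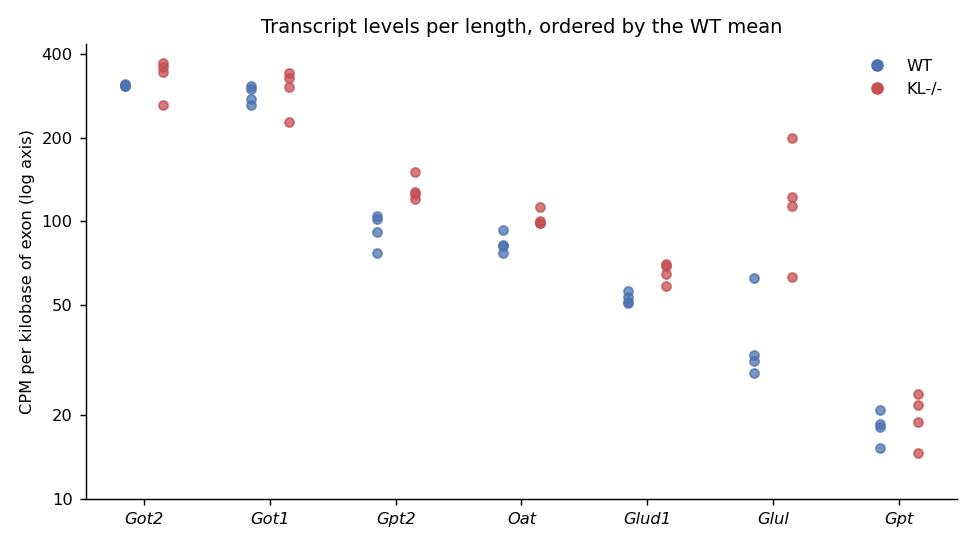
Level of the 7 genes in CPM per kilobase of exonic length on a log axis, with a point for every library of each group and genes in the order of their WT means. Got2 and Got1 are highest and Gpt lowest in both genotypes, and Glul moves from place 6 in WT to 4 in KL-/- muscle, with Oat and Glud1 each 1 place lower.

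Pairs of genes were then compared within each library, where the scaling of libraries cancels. Got1 to Got2 had a mean log2 count ratio of -0.30 ± 0.10 over the WT libraries and -0.35 ± 0.044 over the KL-/- libraries (SD, n = 4 each), a difference of -0.051 (two-sided exact permutation test, p = 0.40, adjusted over the 3 ratios tested p = 0.40). The ratio of Gpt to Gpt2 was -3.40 ± 0.31 and -3.78 ± 0.31, a difference of -0.38 (exact permutation p = 0.143, adjusted p = 0.214). The smallest p that 4 libraries against 4 can give is 0.0286. Both ratios overlapped between the genotypes.

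**Figure D4:**
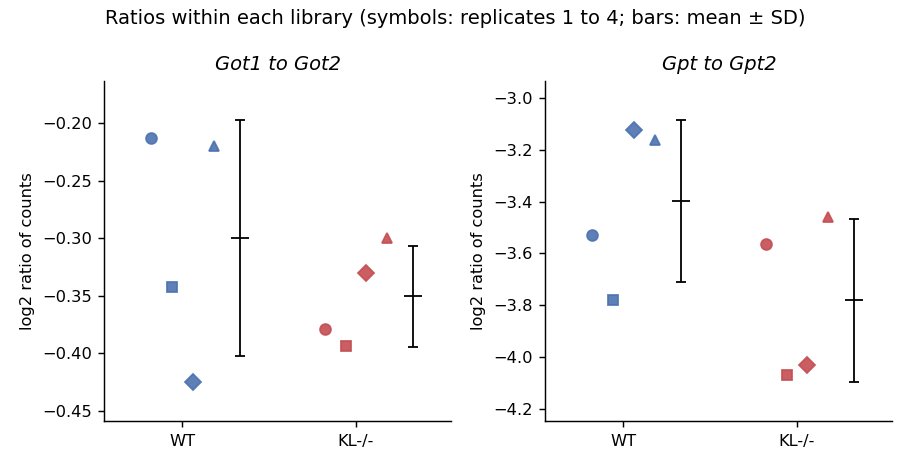
Log2 ratio of counts within each library for Got1 to Got2 and Gpt to Gpt2, with a point for each of 4 WT and 4 KL-/- libraries and the group mean with its SD. The 2 groups overlap in both ratios, with means of -0.30 and -0.35 for Got1 to Got2 and -3.40 and -3.78 for Gpt to Gpt2.

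The genes around these enzymes in the same pathways were read from 6 lists, of which 67 genes were counted, and 9 passed at an FDR under 0.05, 5 higher and 4 lower in KL-/- muscle, where 13.7% of all genes passed. With library totals 14 passed, 4 higher and 10 lower, where 487 of all 12551 genes were higher and 2097 lower. Of 20 other genes that make or use glutamate, glutamine and aspartate, 2 were higher and 2 lower (median log2 fold change -0.041, against -0.016 over all genes). Pfas, which spends glutamine in purine synthesis, rose from 28.2 ± 4.41 to 41.7 ± 3.42 CPM (SD, n = 4 each; log2 fold change 0.56, SE 0.11, edgeR FDR = 0.0123). Ctps2, which spends glutamine to make CTP, rose from 5.44 ± 0.830 to 8.52 ± 1.17 CPM (0.65, SE 0.15, edgeR FDR = 0.0215), a call lost without WT replicate 2 or KL-/- replicate 3 or 4 (edgeR FDR = 0.0571, 0.0603 and 0.0591). Gfpt2, which passes the amide of glutamine to fructose phosphate for hexosamine synthesis, fell from 6.60 ± 0.954 to 3.33 ± 0.840 CPM (log2 fold change -0.99, SE 0.19, edgeR FDR = 0.0127). Aspa, which splits N-acetylaspartate into aspartate and acetate and does not act on glutamine, fell from 8.14 ± 1.39 to 3.77 ± 1.07 CPM (-1.12, SE 0.21, edgeR FDR = 0.0114). The count over the 6 lists was 4 without WT replicate 2, 5 without KL-/- replicate 3 or 4 and 16 without KL-/- replicate 2. Over all 12551 genes, 773 were called without WT replicate 2 and 770 and 781 without KL-/- replicates 3 and 4. Without KL-/- replicate 2 that count was 2765. The calls of Pfas, Gfpt2 and Aspa passed in all 8 fits that each left out 1 library.

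Oat leads into proline and ornithine metabolism. Of 11 genes counted there 2 were higher and 1 lower (median 0.042), where 7.23% of all genes were higher and 6.44% lower. Prodh, which opens the mitochondrial breakdown of proline, rose from 6.56 ± 2.31 to 15.7 ± 4.31 CPM (log2 fold change 1.26, SE 0.27, edgeR FDR = 0.0177), with all KL-/- libraries, at 11.3 to 21.3 CPM, above the WT range of 3.81 to 9.27 CPM. Its call was lost without WT replicate 2 (edgeR FDR = 0.0549). Azin2, an antizyme inhibitor that acts on polyamine synthesis and uptake rather than on proline, rose from 1.89 ± 0.424 to 3.25 ± 0.135 CPM on 33 to 92 counts per library (0.77, SE 0.18, edgeR FDR = 0.0234), a call lost without WT replicate 2 or 3 or KL-/- replicate 3 or 4 (edgeR FDR = 0.0629, 0.0649, 0.0528 and 0.0651). Pycrl, a pyrroline-carboxylate reductase that makes proline, fell from 8.02 ± 0.466 to 5.94 ± 0.898 CPM (-0.43, SE 0.12, edgeR FDR = 0.0468). That call passed in 1 of the 8 fits that left out 1 library, the one without KL-/- replicate 2, and in the other 7 the edgeR FDR was at most 0.102.

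Of 5 other aminotransferase genes counted 1 was higher, where 7.23% of all genes were. The median log2 fold change was 0.31 and 5 of 5 were positive, as were 5982 of all 12551 genes. The gene called was Phykpl, a phospho-lyase of the aminotransferase family that acts in hydroxylysine breakdown. It rose from 22.6 ± 0.545 to 27.9 ± 3.30 CPM (SD, n = 4 each; 0.31, SE 0.088, edgeR FDR = 0.0466), with KL-/- replicate 2, at 23.0 CPM, inside the WT range. Its call passed only in the fit without KL-/- replicate 2 among the 8 that left out 1 library, and the FDR was at most 0.120 in the other 7. DESeq2 called 3 of these 5 genes higher, where it called 10.5% of all genes higher and 19.6% in either direction.

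Among 10 genes of the malate-aspartate shuttle and mitochondrial carriers 0 were called by edgeR's quasi-likelihood test, 0 had an unadjusted p under 0.05 (31.9% of all genes did), and DESeq2 called 0 (median -0.010). Among 6 genes of the purine nucleotide cycle, which frees ammonia from aspartate in working muscle, edgeR called 0, 3 had an unadjusted p under 0.05 and DESeq2 called 0 (median -0.053). Of 15 plasma membrane amino acid transporters 1 was lower and 0 were higher in the edgeR test, where 6.44% and 7.23% of all genes were. DESeq2 called 1 higher and 1 lower, and 2 genes had an unadjusted edgeR p under 0.05 (median 0.043). Slc38a4, a sodium-coupled carrier of neutral amino acids, fell from 149 ± 16.3 to 60.7 ± 18.7 CPM (SD, n = 4 each; log2 fold change -1.30, SE 0.18, edgeR FDR = 0.00482). Its WT libraries were at 131 to 169 CPM and its KL-/- libraries at 45.2 to 87.8 CPM, and the call passed in all 8 fits that left out 1 library.

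**Figure D5:**
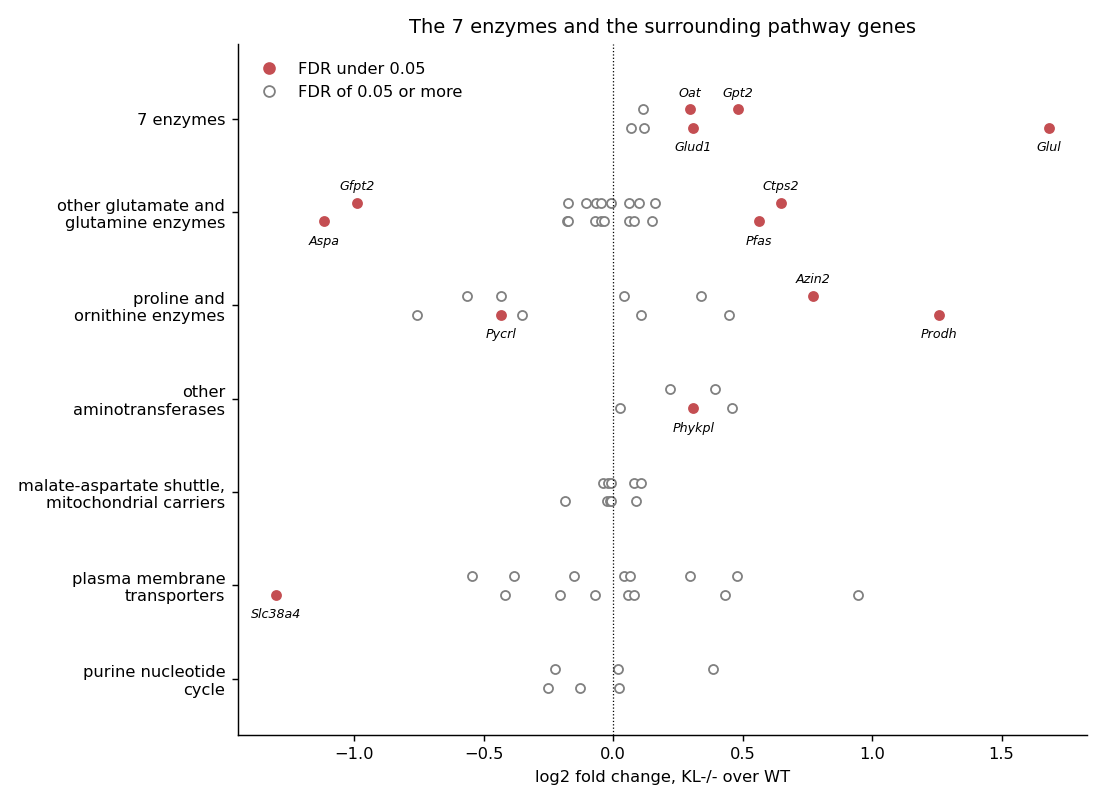
Log2 fold change, KL-/- over WT, of the 7 genes and of the 67 counted genes of the 6 surrounding lists, with genes at an edgeR FDR under 0.05 marked. Among the surrounding genes 5 marked points lie above 0 and 4 below, the lowest being Slc38a4 at -1.30.

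For the 4 called genes, the genes whose levels followed them most closely over the 8 libraries were found by the root-mean-square (RMS) difference in log2 CPM after each gene's own mean was removed, among 7632 genes with a mean of at least 10 CPM. The closest to Glul were Cep85l (0.28), Sh3rf2 (0.31) and Fkbp5 (0.33), where Glul itself varied by an RMS of 0.97. Gpt2 (0.29) was followed by Tcap (0.052), Gstm5 (0.052) and Syf2 (0.057). Glud1 (0.17) was followed by 2700060E02Rik (0.028), Nfix (0.029) and Cacfd1 (0.033), and Oat (0.17) by Mgea5 (0.036), Matr3 (0.042) and Pigp (0.044). All of these share the step between genotypes, so likeness describes these 8 libraries and is given without a test.

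Position and sequence set how cleanly each gene could be counted. Coordinates are from the counting annotation of build mm10. Glul lies on chromosome 1 from 153899929 to 153909723, Gpt2 on chromosome 8 from 85492617 to 85527558, Glud1 on chromosome 14 from 34310727 to 34345033 and Oat on chromosome 7 from 132557475 to 132576398. Got1 lies on chromosome 19 from 43499753 to 43524605, Got2 on chromosome 8 from 95864137 to 95888365 and Gpt on chromosome 15 from 76696764 to 76699675. Counts were made over the exons. In the GENCODE M21 annotation Got2 shared 16.2% of its exonic bases with Gm45760, a gene on the other strand, and Glul 4.67% with Teddm2 on the other strand, a stretch that also holds Mir8114. Of all runs of 50 bases in their transcripts, 25.6% for Got2, 12.6% for Glul, 6.49% for Glud1 and 1.19% for Gpt2 also occurred in other genes, among them the pseudogenes Got2-ps1, Glns-ps1 and Glud-ps, and 0% did for Got1, Gpt and Oat. Phykpl shared 2.85% of its exonic bases with Hnrnpab on the other strand. The use of strand in counting is not given in the sources used here, so reads of pairs on opposite strands cannot be told apart. The levels of Got2, Glul and Phykpl are uncertain to that extent. Those of Got2, Glul, Glud1 and Gpt2 are also uncertain by the runs of bases shared with other genes.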

How the data were processed

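RNA of whole TA muscle (100 ng per library) from 4 WT and 4 KL-/- mice was sequenced. Per the submitters' processing notes and the study's methods, the authors used FastQC, STAR, featureCounts and edgeR with build mm10. Their versions, the annotation release and the strand setting are not given in the sources used here. The labels name total RNA, whereas the methods name mRNA sequencing. The authors deposited raw counts per gene, already limited to 12551 genes, with an exonic length in bases for each, and 0 sample columns were left unused.

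Here counts were fitted with edgeR 4.0.16 (TMM factors, estimated dispersions, quasi-likelihood test, genotype only, Benjamini-Hochberg over all genes) in R 4.3.3. Total counts were 20860262 to 29273758. DESeq2 1.42.0, a likelihood ratio test, other scalings and filters, a replicate block and leaving out each library were alternatives. Ratios were tested with exact permutation tests (scipy 1.17.1), adjusted over 3 ratios, of which 1 is not reported here. The edgeR fit was tested on simulated counts with 200 changed genes. Named genes were all 7 enzymes, every gene of a surrounding list past an FDR of 0.05 (up to 6 per list) and the 3 genes most like each called enzyme. Genes and lists were chosen with earlier results of these data known.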

Additional observations from a re-analysis of the deposited data

Results flagged for a closer look

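Of 40 groups of 4 libraries examined, 3 held a library far from the other members of its group, by Dixon's ratio of the gap to the whole range at the 95% level. Chance marks about 1 in 20 groups. Glul in WT replicate 1 was at 175.5 CPM, with the other WT libraries at 80.1 to 92.9 CPM and a ratio of 0.866. Oat in KL-/- replicate 3 was at 242.2 CPM, with the other KL-/- libraries at 212 to 216 CPM and a ratio of 0.889. Phykpl in KL-/- replicate 2 was at 23.0 CPM, with the other KL-/- libraries at 29.5 to 29.7 CPM and a ratio of 0.976.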

How the results depend on the processing

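The number of all genes past the FDR of 0.05 was 1715 with TMM factors, 2584 when libraries were scaled by their totals alone, and 760 to 2765 when 1 library was left out, lowest without WT replicate 3 (773, 770 and 781 without WT replicate 2, KL-/- replicate 3 and KL-/- replicate 4) and highest without KL-/- replicate 2. For the 7 enzymes the count of 4 became 2 with library totals and ran from 0 to 5 when 1 library was left out. For the surrounding genes the count of 9 became 14 (4 higher, 10 lower) with library totals. It was 14 with DESeq2 and 13 with the likelihood ratio test, where 2456 (19.6%) and 2124 of all 12551 genes were called. When 1 library was left out it ran from 4 to 16. Library totals moved the median of all genes from -0.016 to -0.13 and the share of calls that were higher from 52.9% to 18.8%. Relative to that median the enzymes stood alike under both scalings (Glul 1.70 and 1.70, Oat 0.31 and 0.31), but Glud1 (FDR = 0.0782), Oat (0.107) and Phykpl (0.151) lost their edgeR calls. The difference of Got1 turned to -0.049 and that of Got2 to -9.7e-05 with library totals, and Got1 ran from -0.0018 without KL-/- replicate 4 to 0.19 without KL-/- replicate 2. Other scaling factors, the likelihood ratio test and DESeq2 changed the direction or call of none of the 7 enzymes and 9 called surrounding genes. Neither did a minimum of 10 counts in every library. Fitting without a filter repeated the main fit, because the filter had removed none of the 12551 genes.

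The replicate numbers shared by the groups did not pair the libraries (correlations of deviations between libraries of the same number -0.37 to 0.18, and 1 of 4 numbers matched best with itself). A replicate block gave 629 genes, 1 of the 7 enzymes (Glul, edgeR FDR = 0.0425) and 5 of the surrounding genes. The cause of these changes was not tested. The differences between genotypes in the log2 ratios of Got1 to Got2 and Gpt to Gpt2 kept their sign when 1 library was left out. They ran from -0.092 to -0.022 and from -0.51 to -0.29.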
